A study of Mus musculus with 12 samples.

Results

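The genes described here are 47 genes of the cell cycle and of DNA replication, taken by symbol from a table of 24775 genes measured in mouse heart. All 47 symbols were found in the table. The set was split by phase into 17 replication genes (the MCM helicase, its loading factors, the enzymes of nucleotide supply, the sliding clamp, E2f1 and E2f8) and 30 mitosis genes (entry kinases and cyclins, kinetochore, spindle and cytokinesis genes, and Foxm1). E2f1, E2f8 and Foxm1 were given their phase after the expression values were seen.

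In a cell that divides, the helicase is loaded onto DNA in G1, DNA is copied in S phase, and cyclin B with Cdk1 starts mitosis. The replication genes are largely switched on by E2F factors in late G1, and the mitosis genes later by B-Myb, MuvB and FoxM1. Adult heart muscle cells rarely divide, and in a heart under pressure load fibroblasts, macrophages and endothelial cells are known to enter the cycle.

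The study asked how the proline-degrading enzyme proline dehydrogenase (PRODH) bears on the heart's answer to pressure overload. C57BL/6 mice received an adeno-associated virus, either AAV9-Vector (genotype given as WT) or AAV9-PRODH (genotype given as PRODH Overexpression, described as cardiac-specific). At 3 weeks after the injection they had sham surgery or TAC (transverse aortic constriction, a banding of the aorta that raises the pressure load), and heart tissue was taken 4 weeks after surgery. RNA-seq gave 3 libraries for each of the 4 groups, called vector sham, vector TAC, PRODH sham and PRODH TAC, so every mouse in the study carried a virus and every heart had passed through surgery. No source used here gives the promoter that drives the transgene or the age and sex of the mice, and nothing says whether the mice of a group shared a litter or a day of surgery.

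The libraries held 10132059 to 15228036 reads assigned to genes. The deepest were vector TAC replicates 2 and 3, with 13946000 and 15228036 reads, and the next was vector sham replicate 2 with 12311485. Where reads of a gene are given below, they are not corrected for depth. All values are reads divided by a size factor per library, called normalized counts, and values of a gene in a group are given in the order of replicates 1, 2 and 3. Prodh, the gene the virus carries, lay between 159.6 and 379 normalized counts in the 6 vector libraries and between 497 and 1320 in the 6 PRODH libraries, with no overlap. Each comparison was tested in one limma fit over the 21173 genes that reached 1 normalized count in 3 or more libraries, on log2(normalized count + 1), and "called" means a Benjamini-Hochberg adjusted p under 0.05 over all of these genes. A log2 difference on this scale understates the change of a low gene. In RNA from whole tissue, fewer cells of a type and less RNA per cell cannot be told apart.

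Promoter sequences of the members are described here by phase, for motifs chosen after the expression values were seen. RefSeq (GRCm38.p6) gave a window of 250 bases before to 50 bases after the gene start for 40 of the 47 members. Each window was searched on both strands for TTTGAA (the core of the cell cycle homology region, the element that MuvB complexes bind), for TTCCCGC or TTGGCGC (E2F), and for CCAAT, the box bound by NF-Y. In the printed windows no matches overlap. No other motifs were searched. TTTGAA was present in 18 of 25 mitosis windows (72.0%) and in 3 of 15 replication windows (20%), against 15.5% of 13545 windows of tested genes. The E2F letters were present in 4 of 25 mitosis windows (16.0%) and 8 of 15 replication windows (53.3%), against 12.7%. CCAAT was present in 80.0% of mitosis and 66.7% of replication windows, against 41.9%, and TTTGAA together with CCAAT in 64.0% and 20%, against 7.48%. These are matches of letters and carry no test.

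Printed here are 4 of these windows, chosen after the values were seen. Ccnb2 and Kif11 are the members called in vector hearts, Tyms had the smallest p between the TAC groups, and Mcm6 is a licensing gene with E2F letters. Each is written 5′ to 3′ on the strand of the gene, with matched letters in capitals; a motif on the other strand appears as its reverse complement (TTCAAA for the first motif and ATTGG for the last). The Ccnb2 window (chr9:70421505-70421804, minus strand) held TTTGAA at 2 places and CCAAT at 3. In the Kif11 window (chr19:37376132-37376431, plus strand) each of these stood once, both on the other strand. The Tyms window (chr5:30073576-30073875, minus strand) held none of the letters. The Mcm6 window (chr1:128359656-128359955, minus strand) held TTGGCGC at 2 places and ATTGG at 2.
Ccnb2: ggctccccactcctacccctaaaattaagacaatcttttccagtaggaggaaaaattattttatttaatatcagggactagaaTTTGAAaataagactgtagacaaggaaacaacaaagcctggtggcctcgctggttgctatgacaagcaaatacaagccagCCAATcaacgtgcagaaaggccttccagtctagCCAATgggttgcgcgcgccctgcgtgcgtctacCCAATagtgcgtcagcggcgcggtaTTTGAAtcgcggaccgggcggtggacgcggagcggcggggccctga
Kif11: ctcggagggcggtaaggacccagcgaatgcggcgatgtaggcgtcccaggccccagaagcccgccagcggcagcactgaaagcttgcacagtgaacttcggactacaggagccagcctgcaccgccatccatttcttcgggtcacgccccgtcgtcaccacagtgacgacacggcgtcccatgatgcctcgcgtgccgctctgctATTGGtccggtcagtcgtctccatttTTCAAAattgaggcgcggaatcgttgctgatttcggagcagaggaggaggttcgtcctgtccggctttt
Tyms: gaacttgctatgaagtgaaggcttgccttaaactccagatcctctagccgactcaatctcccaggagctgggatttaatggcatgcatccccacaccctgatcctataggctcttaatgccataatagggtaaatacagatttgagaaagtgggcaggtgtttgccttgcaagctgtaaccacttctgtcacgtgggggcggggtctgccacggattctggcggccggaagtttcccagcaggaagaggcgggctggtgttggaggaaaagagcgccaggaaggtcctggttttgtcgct
Mcm6: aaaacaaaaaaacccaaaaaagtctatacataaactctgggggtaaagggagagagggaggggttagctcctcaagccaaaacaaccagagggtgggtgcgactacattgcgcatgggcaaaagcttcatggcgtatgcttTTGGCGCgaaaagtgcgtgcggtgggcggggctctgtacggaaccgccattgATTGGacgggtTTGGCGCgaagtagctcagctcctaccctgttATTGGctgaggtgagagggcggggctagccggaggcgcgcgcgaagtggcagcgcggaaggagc

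After TAC in vector hearts 29 of 30 mitosis genes and 14 of 17 replication genes had a mean log2 level above sham, with medians of 0.89 and 0.24, and 2 single genes, both of mitosis, passed the test. Whether the 2 phases differed was not tested. Of the 47 members 2 were called higher and 0 lower (4.05% of all tested genes were): Kif11, the plus-end motor that pushes spindle poles apart, and Ccnb2, a cyclin partner of Cdk1. That is 4.26% of the members, close to the 3.72% of all tested genes called higher, so by calls alone the members did not stand out. By sign, 43 of 47 lay above 0 (52% of all tested genes did), and their median log2 difference was 0.71, against 0.02 over all tested genes. The libraries of vector TAC and vector sham did not overlap in 14 members that were higher (29.8%; 10.1% of all genes) and in 1 that was lower (2.13%; 10% of all genes). At an unadjusted limma p under 0.05 there were 15 higher members (31.9%; 9.83% of all genes) and 0 lower (9.88% of all genes).

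By phase, the median log2 difference was 0.89 over the 30 mitosis genes, of which 29 lay above 0, 12 had no overlap and 2 were called. Over the 17 replication genes it was 0.24, with 14 above 0, 2 higher without overlap (Mcm4 and Tyms), 1 lower without overlap (Rrm1) and none called. By role the medians ran from 0.15 for nucleotide supply and the clamp and 0.22 for licensing and helicase genes to 0.75 for chromosome and spindle genes, 0.79 for kinetochore and checkpoint genes, 0.98 for cytokinesis genes and 1.15 for the mitotic entry kinases and cyclins. Across all 12 libraries the members' mean ran from 7.65 to 573 normalized counts with a median of 38.3, against 64.9 over all tested genes, and 38 of the 47 lay under 100. All 47 passed the filter on low values.

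**Figure D1:**
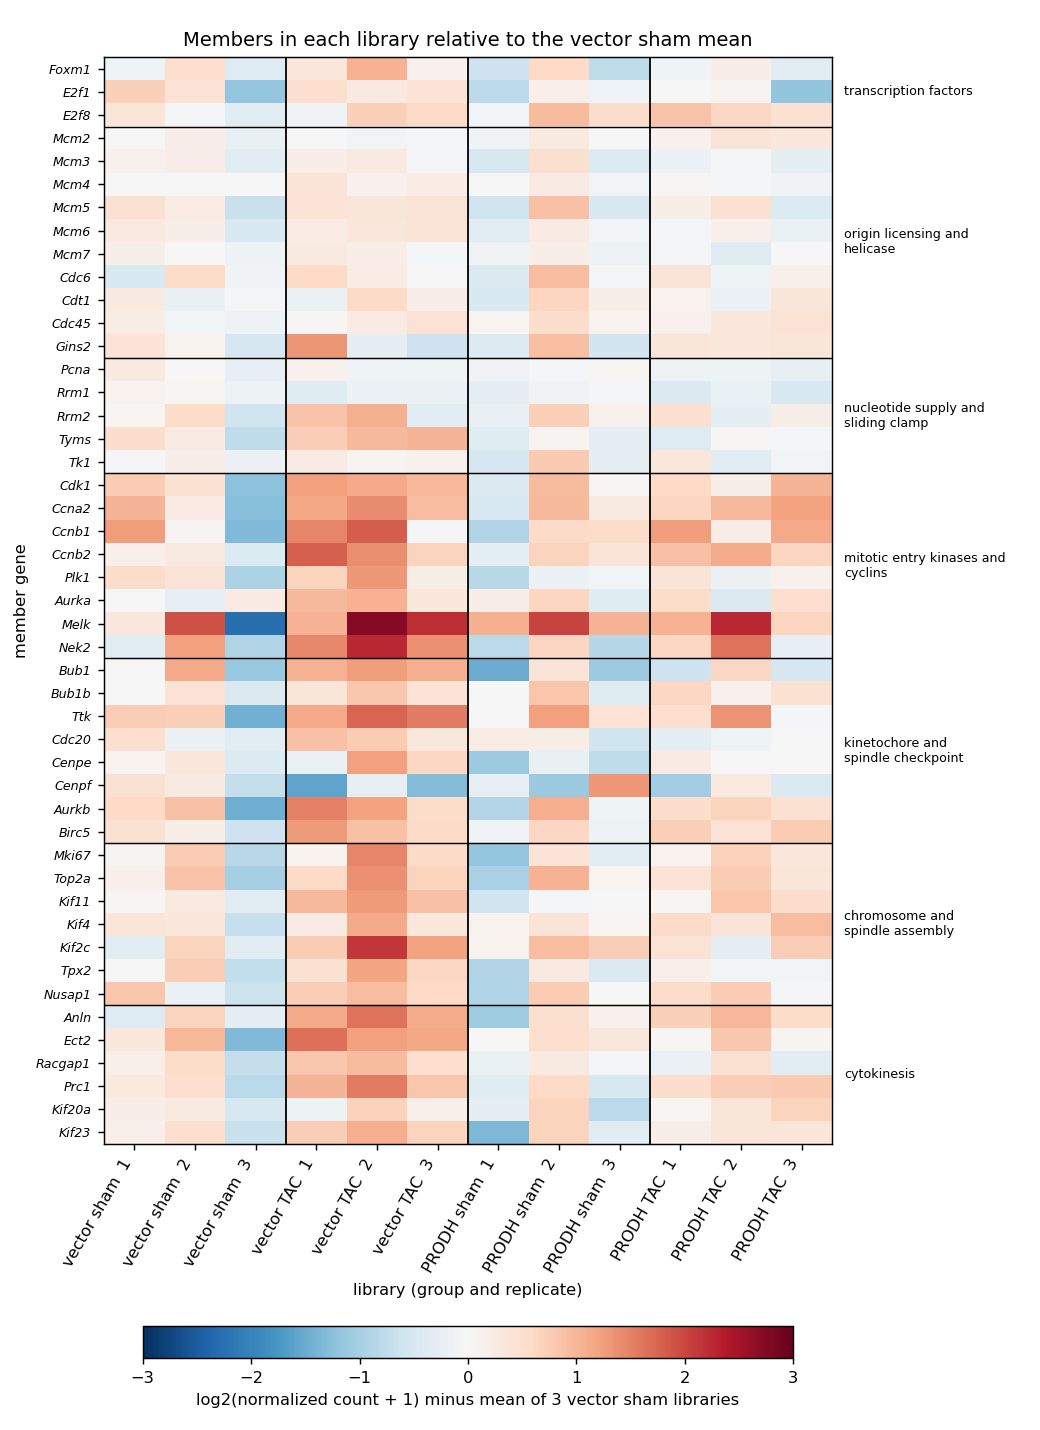
Each row is one of the 47 members, in role order, and each column one library; colour gives log2(normalized count + 1) minus the mean of the 3 vector sham libraries, on a scale from -3 to 3. The lower rows, the mitosis genes other than Foxm1 (top row), are mostly red in the vector TAC columns (deepest in replicate 2). They are mostly blue in vector sham replicate 3, with Cenpf blue in vector TAC, and the MCM rows are paler.

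Single libraries weighed on this. Averaged over the 30 mitosis genes, the log2 level relative to the vector sham mean was 0.28, 0.52 and -0.79 in vector sham, 0.79, 1.28 and 0.66 in vector TAC, -0.47, 0.56 and -0.07 in PRODH sham, and 0.34, 0.54 and 0.34 in PRODH TAC. All vector TAC libraries thus lay above all vector sham libraries, with 0.52 as the highest sham and 0.66 as the lowest TAC value. Vector sham replicate 3 was the lowest of all 12 libraries in 16 of the 30 mitosis genes and in 8 of the 17 replication genes, and vector TAC replicate 2 the highest of all 12 in 22 of the 30. Without vector sham replicate 3 the median over all members fell from 0.71 to 0.35 (mitosis 0.50, replication 0.06) and no member was called, and 39 still lay above 0. Without vector TAC replicate 2 it was 0.46 (mitosis 0.70, replication 0.24), again with none called. None was called either without PRODH TAC replicate 3, which enters this comparison through the shared estimate of spread. Over all tested genes the calls fell too, from 787 of 21173 higher in the main fit. They were 534 of 20820 without vector sham replicate 3, 384 of 20965 without vector TAC replicate 2 and 660 of 20867 without PRODH TAC replicate 3.

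For the 17 replication genes the same average was 0.21, 0.15 and -0.35 in vector sham, 0.31, 0.28 and 0.14 in vector TAC, -0.30, 0.46 and -0.09 in PRODH sham, and 0.10, 0.04 and -0.05 in PRODH TAC. Here vector sham and vector TAC overlapped, and PRODH sham replicate 2 was the highest library of all. That library was the highest of its group in 15 of 17 replication and 26 of 30 mitosis genes.

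**Figure D2:**
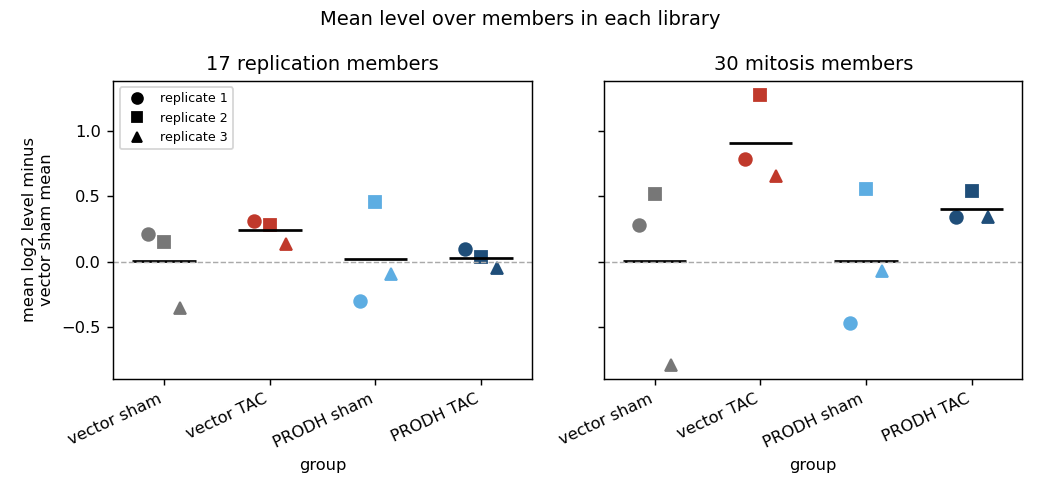
Mean log2 level of the 17 replication genes (left) and the 30 mitosis genes (right) in each library, relative to the vector sham mean; marker shapes are replicates and bars are group means. In the right panel the vector TAC libraries lie between 0.66 and 1.28, above the other 9 libraries, of which the highest is at 0.56.

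Among the transcription factors, Foxm1, which activates genes of G2 and mitosis, stood at 27.8, 43.5 and 23.1 in vector sham, 37.9, 63.9 and 33.6 in vector TAC, 19.3, 46.4 and 17.5 in PRODH sham and 27.8, 35.1 and 24.1 in PRODH TAC. E2f1, an activator of replication genes, stood at 73.02, 59.8 and 18.9 in vector sham, 62.5, 52.8 and 58.2 in vector TAC, 25.03, 48.6 and 40.5 in PRODH sham and 43.7, 46.1 and 18.7 in PRODH TAC. The lowest values of E2f1 were in vector sham replicate 3 and PRODH TAC replicate 3. E2f8, a late-acting repressor of E2F targets, stood at 17.5, 12.7 and 10.5 in vector sham, 12.3, 22.3 and 20.6 in vector TAC, 12.5, 26.5 and 19.7 in PRODH sham and 24.8, 20.9 and 18.7 in PRODH TAC. In Foxm1 and E2f8 the compared groups overlapped, and in E2f1 PRODH TAC lay below vector TAC without overlap. In limma the log2 difference of vector TAC from vector sham was 0.50 for Foxm1, 0.39 for E2f1 and 0.40 for E2f8, none called.

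Of the 10 licensing and helicase genes none was called in any comparison. Mcm2, Mcm4, Mcm5 and Mcm6 encode subunits of the helicase ring that opens DNA at origins. Mcm2 stood at 126, 143 and 106 in vector sham, 125, 117 and 121 in vector TAC, 116, 149 and 125 in PRODH sham and 135, 164 and 154 in PRODH TAC. Mcm4 stood at 129.6, 129.5 and 131 in vector sham, 169.6, 143 and 153 in vector TAC, 129.7, 153 and 122 in PRODH sham and 136, 125 and 122 in PRODH TAC. These 2 subunits of one ring differed in opposite directions between the TAC groups. PRODH TAC lay above vector TAC without overlap in Mcm2 (log2 difference 0.31), the only member to do so, and below it without overlap in Mcm4 (log2 difference -0.28). Neither difference was called, with limma adjusted p of 0.39 and 0.4.

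Mcm5 stood at 114, 96.9 and 52.5 in vector sham, 112, 108 and 109 in vector TAC, 54.6, 153 and 60.2 in PRODH sham and 94.3, 115 and 62.6 in PRODH TAC. Mcm6, whose promoter is shown above with its E2F letters, stood at 251, 233 and 149 in vector sham, 239.8, 262 and 271 in vector TAC, 166, 246 and 196 in PRODH sham and 199.5, 229.5 and 179 in PRODH TAC. Both were lowest of all 12 libraries in vector sham replicate 3 and highest of their group in PRODH sham replicate 2, and Mcm6 was lower in each PRODH TAC library than in each vector TAC library. Its log2 difference was 0.32 between vector TAC and vector sham and -0.35 between the TAC groups. The other licensing genes (Mcm3, Mcm7, and Cdc6, Cdt1, Cdc45 and Gins2, which load or activate the helicase) differed by 0.13 (Mcm7) to 0.27 (Cdc6) on the log2 scale in vector hearts. Gins2 was at 48.0 in vector TAC replicate 1 and at 14.9 and 11.6 in the other vector TAC libraries.

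In nucleotide supply Tyms differed from the rest. It encodes thymidylate synthase, the enzyme that makes the thymidine nucleotide for DNA. Tyms stood at 67.9, 56.1 and 27.3 in vector sham, 79.2, 93.7 and 95.9 in vector TAC, 36.4, 49.7 and 38.3 in PRODH sham and 35.7, 48.3 and 45.01 in PRODH TAC. Each vector TAC library lay above the other 9 libraries, and the PRODH TAC values lay within the range of the sham values. The log2 difference was 0.91 (SE 0.30, adjusted p = 0.087) between vector TAC and vector sham and -1.05 (SE 0.30, adjusted p = 0.068) between PRODH TAC and vector TAC, the smallest p of any member between the TAC groups. Neither was called in limma, and the second was called by edgeR (adjusted p = 0.043) and DESeq2 (adjusted p = 0.0098) on the recovered reads and with a filter of at least 10 in 3 libraries (limma adjusted p = 0.049). Over the leave-one-out fits its adjusted p between the TAC groups ran from 0.022 to 0.22. An annotated Tyms pseudogene exists, and how reads shared with it were counted is not given.

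Pcna, the sliding clamp that holds polymerases on DNA and also serves in repair, was the highest member. Pcna stood at 719, 587 and 501 in vector sham, 652, 544 and 547 in vector TAC, 558, 578 and 608 in PRODH sham and 539, 538 and 503 in PRODH TAC. Its values hardly differed between vector TAC and vector sham (log2 difference -0.04 (SE 0.13, adjusted p = 0.92), 95% interval -0.33 to 0.25). Rrm1 and Rrm2 are the large and small subunits of ribonucleotide reductase, and of these Rrm2 is the one whose level is known to follow S phase. Rrm1 stood at 279.7, 272 and 236 in vector sham, 203, 233 and 233 in vector TAC, 216, 245 and 253 in PRODH sham and 195, 227 and 191 in PRODH TAC. Rrm2 stood at 40.1, 57.05 and 25.2 in vector sham, 70.3, 81.8 and 30.8 in vector TAC, 33.00, 64.02 and 42.7 in PRODH sham and 54.6, 31.8 and 43.9 in PRODH TAC. In vector hearts Rrm1 lay below sham in each TAC library, with a log2 difference of -0.23 (SE 0.14, adjusted p = 0.38), and Rrm2 had a difference of 0.53 (SE 0.39, adjusted p = 0.53) with overlapping groups. The thymidine kinase gene Tk1 differed by 0.15.

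All 8 mitotic entry genes had a positive log2 difference between vector TAC and vector sham, and 1 was called. Ccnb2, whose promoter above holds paired TTTGAA and CCAAT letters, stood at 17.5, 19.02 and 11.6 in vector sham, 56.9, 43.1 and 25.3 in vector TAC, 12.5, 25.4 and 20.8 in PRODH sham and 29.8, 35.1 and 25.2 in PRODH TAC. The vector TAC libraries lay above all vector sham libraries, with the lowest TAC value at 25.3 and the highest sham value at 19.0. Mean levels were 16.00 ± 3.94 in vector sham and 41.8 ± 15.8 in vector TAC (SD, n = 3). Ccnb2 rose by a log2 difference of 1.29 (SE 0.37, adjusted p = 0.048) in limma. That call was close to the threshold and was lost in 14 of 23 alternatives, among them those without vector sham replicate 3 (adjusted p = 0.17) and without vector TAC replicate 2 (adjusted p = 0.16). A Ccnb2 pseudogene is annotated as well.

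Cdk1, the kinase that drives mitosis, stood at 40.1, 32.6 and 9.46 in vector sham, 55.8, 52.8 and 47.95 in vector TAC, 17.1, 46.4 and 24.1 in PRODH sham and 35.7, 26.4 and 48.3 in PRODH TAC. Ccna2, the cyclin of S phase and G2, stood at 50.4, 28.98 and 9.46 in vector sham, 55.8, 66.9 and 47.3 in vector TAC, 17.1, 48.6 and 29.5 in PRODH sham and 38.7, 48.3 and 57.1 in PRODH TAC. Ccnb1, the main partner of Cdk1, stood at 23.6, 9.96 and 3.15 in vector sham, 27.9, 35.7 and 8.90 in vector TAC, 4.55, 14.3 and 14.2 in PRODH sham and 23.8, 10.98 and 21.96 in PRODH TAC. In all 3, vector sham replicate 3 was the lowest of the 12 libraries, and of the 3 only Cdk1 showed no overlap between vector TAC and vector sham. Their log2 differences were 1.12, 1.18 and 1.08, with limma adjusted p of 0.19, 0.18 and 0.41.

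Nek2, a kinase of centrosome separation, stood at 5.14, 17.2 and 3.15 in vector sham, 20.1, 36.4 and 19.2 in vector TAC, 3.41, 11.04 and 3.28 in PRODH sham and 10.9, 23.1 and 5.49 in PRODH TAC. It was higher in each vector TAC library than in each vector sham library, with a log2 difference of 1.70 (SE 0.63, adjusted p = 0.13), not called. The largest difference of any member was that of Melk, a kinase gene high in dividing cells, singled out here for its size, at 2.00. It rested on few reads, 0 to 19 for the vector sham and 8 to 42 for the vector TAC libraries, and its groups overlapped. Aurka and Plk1, kinases of spindle poles and mitotic entry, differed by 0.78 and 0.72, not called.

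At the kinetochore 7 of 8 genes had a positive difference in vector hearts and none was called. Aurkb, the kinase of the chromosomal passenger complex, stood at 20.6, 25.4 and 4.20 in vector sham, 40.2, 31.96 and 19.9 in vector TAC, 6.83, 29.8 and 12.03 in PRODH sham and 19.9, 21.96 and 18.7 in PRODH TAC. Birc5 (survivin), a subunit of the same complex, stood at 25.7, 20.8 and 11.6 in vector sham, 45.7, 34.9 and 28.1 in vector TAC, 17.1, 28.7 and 16.4 in PRODH sham and 30.8, 25.3 and 31.8 in PRODH TAC. Vector TAC lay above vector sham without overlap in Birc5 and not in Aurkb. Their log2 differences were 0.91 (SE 0.36, adjusted p = 0.16) and 1.09 (SE 0.59, adjusted p = 0.33) in limma.

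Ttk, the kinase that starts the spindle checkpoint, stood at 8.23, 8.15 and 1.05 in vector sham, 11.2, 17.8 and 15.1 in vector TAC, 4.55, 12.1 and 6.56 in PRODH sham and 6.95, 13.2 and 4.39 in PRODH TAC. Cdc20, the activator of the anaphase-promoting complex that the checkpoint holds back, stood at 53.5, 32.6 and 29.4 in vector sham, 69.2, 63.9 and 47.3 in vector TAC, 43.2, 41.9 and 24.1 in PRODH sham and 30.8, 34.04 and 37.3 in PRODH TAC. Ttk was higher in all vector TAC than in all vector sham libraries, on 10 to 24 reads against 1 to 9. Cdc20 was lower in each PRODH TAC library than in each vector TAC library, with a log2 difference of -0.79 (SE 0.31, adjusted p = 0.19).

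Cenpf, a large protein of the outer kinetochore, went the other way from the rest of the mitosis genes and is named for that reason. Cenpf stood at 137, 119.5 and 59.9 in vector sham, 32.4, 83.2 and 39.7 in vector TAC, 84.2, 45.2 and 246 in PRODH sham and 47.6, 122 and 73.5 in PRODH TAC. Its lowest values were in vector TAC replicates 1 and 3, and its highest, 246, in PRODH sham replicate 3, a library whose average over the mitosis genes was -0.07. The groups overlapped, and the log2 difference of vector TAC from vector sham was -1.05 (SE 0.53, adjusted p = 0.3). Bub1, a checkpoint kinase, had the most negative difference of any member between the TAC groups, at -1.29 (SE 0.62, adjusted p = 0.31), and its counts in PRODH TAC were all below those in vector TAC.

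Among chromosome and spindle genes Kif11 was the second called member. Kif11 stood at 33.9, 39.8 and 25.2 in vector sham, 64.7, 79.5 and 60.3 in vector TAC, 21.6, 30.9 and 32.8 in PRODH sham and 33.8, 58.2 and 47.2 in PRODH TAC. Each vector TAC library lay above all vector sham, PRODH sham and PRODH TAC libraries, and each PRODH TAC library above each PRODH sham library. The mean level was 33.00 ± 7.36 in vector sham, 68.2 ± 10.1 in vector TAC, 28.4 ± 5.99 in PRODH sham and 46.4 ± 12.2 in PRODH TAC (SD, n = 3). Kif11 rose after TAC in vector hearts with a log2 difference of 1.04 (SE 0.29, adjusted p = 0.038). In PRODH hearts the difference was 0.67 (SE 0.29, adjusted p = 0.56), and between the TAC groups -0.57 (SE 0.29, adjusted p = 0.35), neither called. The call in vector hearts was lost in 8 of 23 alternatives, among them those without vector sham replicate 3 (adjusted p = 0.15) and without vector TAC replicate 2 (adjusted p = 0.17). No gene is annotated over the exons of Kif11 on either strand.

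Mki67, the standard marker of dividing cells, stood at 103, 165 and 54.6 in vector sham, 105, 269 and 146 in vector TAC, 43.2, 129 and 78.8 in PRODH sham and 105, 159 and 121 in PRODH TAC. Top2a, the topoisomerase that untangles replicated chromosomes, stood at 83.3, 136 and 36.8 in vector sham, 114, 194 and 118 in vector TAC, 37.5, 154 and 77.7 in PRODH sham and 100.3, 128 and 96.6 in PRODH TAC. In both, vector TAC replicate 2 was the highest of all libraries and the other vector TAC libraries lay within the sham range, so the groups overlapped. Their log2 differences in vector hearts were 0.71 (SE 0.42, adjusted p = 0.4) and 0.87 (SE 0.46, adjusted p = 0.32). For Mki67 the difference between PRODH TAC and vector TAC was -0.34 with a 95% interval of -1.25 to 0.57, which holds values on both sides of 0.

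Tpx2, which builds the spindle around chromosomes, stood at 37.02, 62.5 and 22.1 in vector sham, 51.3, 85.5 and 57.5 in vector TAC, 19.3, 45.2 and 27.4 in PRODH sham and 41.7, 35.1 and 35.1 in PRODH TAC. Kif2c, a motor that takes microtubules apart at kinetochores, stood at 3.08, 7.24 and 3.15 in vector sham, 7.81, 21.6 and 10.96 in vector TAC, 4.55, 8.83 and 7.66 in PRODH sham and 5.96, 3.29 and 7.68 in PRODH TAC. In Kif2c vector TAC lay above vector sham and PRODH TAC below vector TAC, both without overlap but by less than 1 normalized count, on 3 to 8 reads (vector sham), 7 to 29 reads (vector TAC) and 3 to 7 reads (PRODH TAC). Kif2c was also the one member with an unadjusted p under 0.05 for the difference between the 2 TAC responses, -1.65 (SE 0.72, adjusted p = 0.55). Kif4 and Nusap1, which act on chromosome arms and spindle bundles, differed by 0.57 and 0.75 in vector hearts, not called.

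All 6 cytokinesis genes had a positive difference in vector hearts, 4 of them without overlap and none called. Anln (anillin), the scaffold of the contractile ring, stood at 22.6, 47.99 and 24.2 in vector sham, 66.9, 93.7 and 65.8 in vector TAC, 13.7, 41.9 and 32.8 in PRODH sham and 49.6, 60.4 and 43.9 in PRODH TAC. Each vector TAC library lay above the other 9, and each PRODH TAC library above each PRODH sham library. Its log2 difference was 1.29 (SE 0.38, adjusted p = 0.053) in vector hearts and 0.90 (SE 0.38, adjusted p = 0.56) in PRODH hearts. It just missed the threshold in vector hearts, and 9 of 23 alternatives called it, among them edgeR (adjusted p = 0.037) and DESeq2 (adjusted p = 0.011).

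Prc1, which bundles the microtubules between separating chromosomes, stood at 32.9, 38.03 and 14.7 in vector sham, 54.7, 79.5 and 47.95 in vector TAC, 20.5, 40.8 and 18.6 in PRODH sham and 38.7, 45.02 and 46.1 in PRODH TAC. Ect2, the exchange factor that switches on RhoA for the ring, stood at 18.5, 29.9 and 5.25 in vector sham, 47.97, 35.7 and 33.6 in vector TAC, 14.8, 20.97 and 18.6 in PRODH sham and 14.9, 26.4 and 15.4 in PRODH TAC. In both genes vector TAC lay above vector sham and above PRODH TAC without overlap. The log2 differences in vector hearts were 1.13 (SE 0.38, adjusted p = 0.088) and 1.35 (SE 0.48, adjusted p = 0.12), and between the TAC groups -0.45 (SE 0.38, adjusted p = 0.63) and -1.04 (SE 0.48, adjusted p = 0.3). Racgap1, which partners Ect2 and Kif23 at the midzone, differed by 0.75 and -0.77, Kif23 by 0.83 and -0.52, and Kif20a by 0.23 and 0.13.

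**Figure D3:**
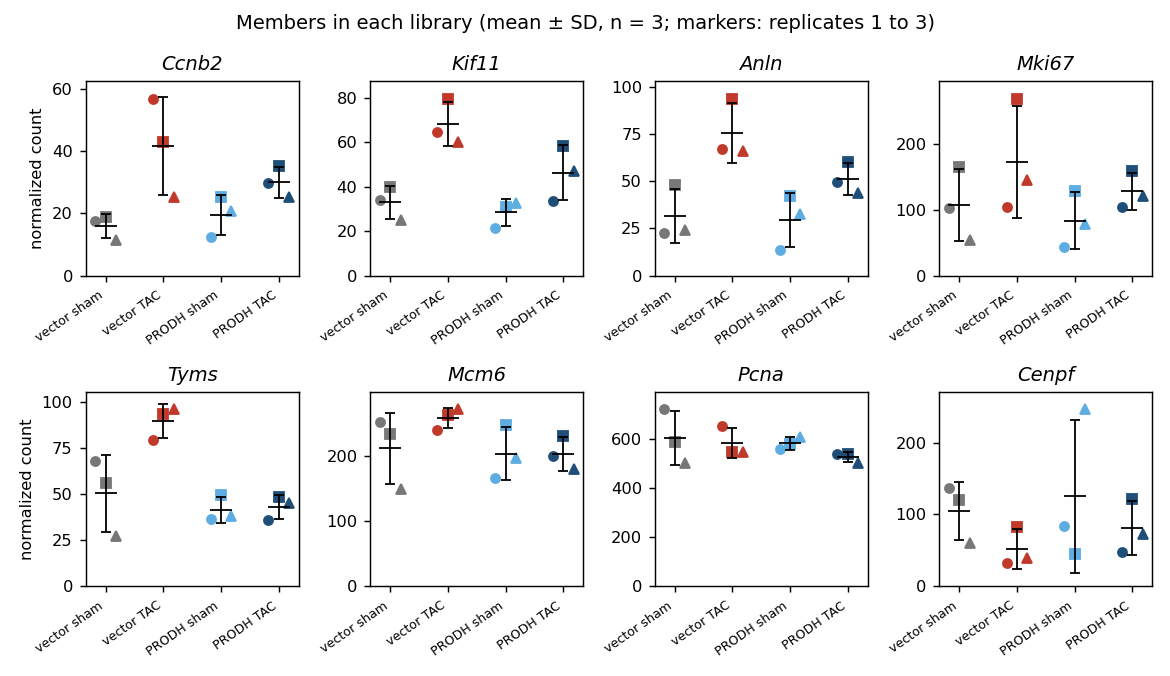
Normalized counts of 8 members in each library; bars are mean ± SD of 3 libraries and marker shapes are replicates. In Ccnb2, Kif11, Anln and Tyms each vector TAC point lies above each vector sham point, whereas Mki67, Mcm6, Pcna and Cenpf overlap; these 8 were chosen after their values were seen.

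Between PRODH TAC and vector TAC hearts no member was called by limma (3.92% of all tested genes were, 2.12% higher and 1.8% lower), and edgeR and DESeq2 each called 1, Tyms, lower. Of all 21173 tested genes edgeR called 460 lower and DESeq2 707. The members lay mostly lower, 40 of 47 below 0, with a median log2 difference of -0.36 against -0.01 over all tested genes. Of all tested genes 49% lay above 0. PRODH TAC lay below vector TAC without overlap in 15 members (31.9%; 10% of all genes) and above it in 1, Mcm2 (10.6% of all genes). At an unadjusted limma p under 0.05 there were 4 lower members, Tyms, Cdc20, Racgap1 and Ect2 (8.51%; 7.8% of all genes), and 0 higher (8.67% of all genes). The median was -0.53 over the mitosis genes, 27 of 30 below 0, and -0.17 over the replication genes, 13 of 17 below 0. Since the vector TAC libraries enter this comparison and the one above, a vector TAC library that is high moves both: without vector TAC replicate 2 the mitosis median was -0.33. The replication median was -0.31 without PRODH TAC replicate 1 and -0.28 without vector TAC replicate 3. By role, the medians were -0.55 for entry kinases and cyclins, -0.53 for cytokinesis genes, -0.50 for kinetochore genes, -0.36 for chromosome and spindle genes, -0.21 for licensing genes and -0.17 for nucleotide supply.

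In unloaded hearts PRODH and vector groups did not separate. Of the 47 members 23 lay above 0 and 24 below, with a median of -0.02 (51% of all tested genes lay above 0). No member was called by limma, edgeR or DESeq2, which called 0, 0 and 7 of all 21173 tested genes. None lacked overlap (6.33% of all genes were higher and 4.89% lower without overlap). None had an unadjusted limma p under 0.05 (1.81% of all genes did with a higher and 2.3% with a lower value). The median moved from -0.30 without vector sham replicate 3 to 0.17 without PRODH sham replicate 1, so its sign was set by single libraries. The intervals remained wide, with Mki67 at -0.35 (95% interval -1.26 to 0.55) and Cdk1 at 0.19 (95% interval -0.81 to 1.19).

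After TAC in PRODH hearts no member was called by limma, edgeR or DESeq2 (limma called 0.0236% of all genes, 0.0189% higher and 0.00472% lower). Of all 21173 tested genes edgeR called 11 and DESeq2 126. The limma share depended on the fit. With only the PRODH sham and PRODH TAC libraries fitted, limma called 1023 of 19129 genes and no member. The same kind of fit called 652 of 18911 genes after TAC in vector hearts. In the fit of all 12 libraries the median over the members was 0.19, with 32 of 47 above 0 (50.6% of all tested genes were). Over the mitosis genes it was 0.48, with 25 of 30 above 0, and over the replication genes -0.02, with 7 of 17 above 0. Cenpe, a kinetochore motor, Kif11 and Anln were higher without overlap (6.38%; 10.4% of all genes), and Pcna lower (2.13%; 11.4% of all genes). Kif11 and Anln also had an unadjusted limma p under 0.05 (4.34% of all genes were higher at that level), and no member was lower (4.24%). Without PRODH sham replicate 2 the median over all members was 0.54, the mitosis median 0.78 and the replication median 0.20. Without PRODH sham replicate 1 these were 0.03, 0.16 and -0.15, and without PRODH sham replicate 3 the median over all members was 0.10. The median after TAC in PRODH hearts thus rested on single sham libraries, and no member was called without any of them.

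The difference between the 2 TAC responses was tested as an interaction. None of the 47 was called by limma, edgeR or DESeq2 (limma called 0.104% of all genes, 0.0472% higher and 0.0567% lower), and 40 lay below 0 with a median of -0.32. Of all 21173 tested genes edgeR called 32 and DESeq2 197, and 49.4% lay above 0 in limma. At an unadjusted limma p under 0.05 there was 1 lower member, Kif2c (4.18% of all genes), and 0 higher (4.42%). The test thus did not separate the responses for any member, and the intervals were wide: -1.77 to 0.48 on the log2 scale for Ccnb2, -1.23 to 0.50 for Kif11 and -1.27 to 1.29 for Mki67. The median rested on single libraries, at -0.04 without PRODH sham replicate 2 and -0.07 without vector sham replicate 3, and at -0.54 without PRODH sham replicate 1 and -0.49 without vector sham replicate 2.

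**Figure D4:**
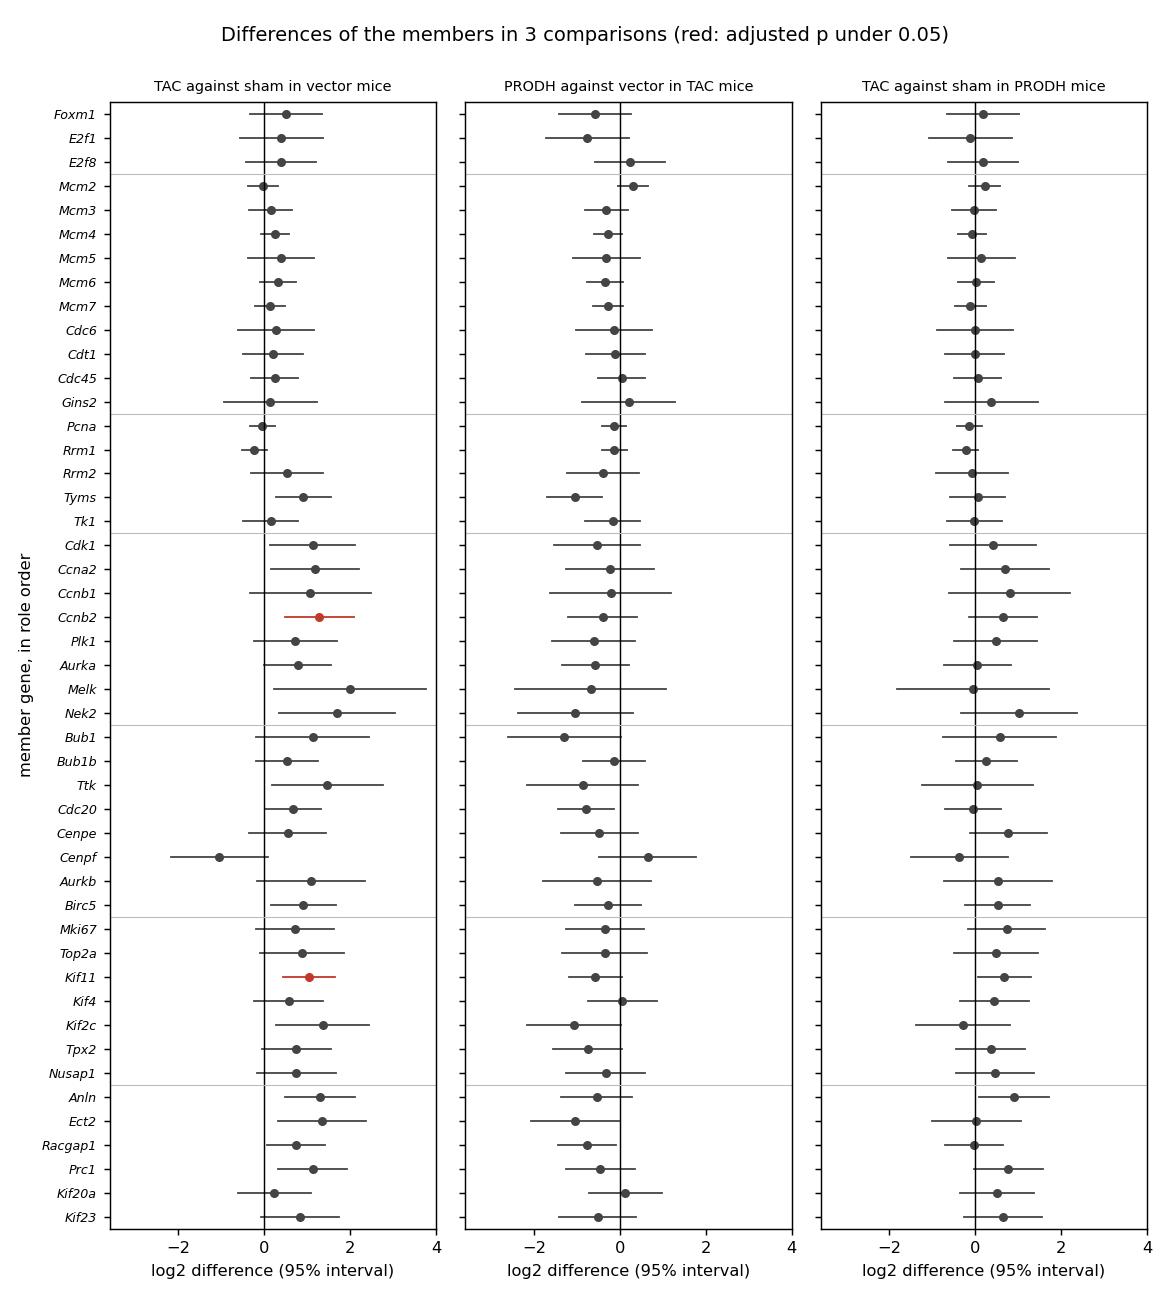
Log2 difference (points) and 95% interval (lines) of each member in 3 comparisons, in role order, with called members in red. In the left panel all but 4 points lie right of 0 and Ccnb2 and Kif11 are red; in the middle panel 40 of 47 points lie left of 0 and none is red.

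Genes of the cycle outside the set were read from 5 lists holding 102 genes, of which 4 were called higher (3.92%; 3.72% of all genes) and 3 lower (2.94%; 4.05% of all genes) in vector hearts after TAC and none in the other comparisons. These shares are near or below those of all genes, so the called genes are given as single values. Of 7 CDK inhibitors 3 were called, in both directions. Cdkn1a (p21) rose, from 1019, 810.4 and 921 normalized counts in vector sham to 1139, 1389 and 1640 in vector TAC, with a log2 difference of 0.59 (SE 0.17, adjusted p = 0.043). Cdkn2b (p15), a low gene, rose from 3.09, 9.96 and 3.15 to 15.6, 20.1 and 26.7, with 1.90 (SE 0.49, adjusted p = 0.027). Cdkn1c (p57) fell from 624, 409 and 420.3 to 253, 201 and 225, with -1.07 (SE 0.18, adjusted p = 0.0015). In PRODH sham hearts Cdkn1a was at 752, 859 and 663, Cdkn2b at 4.55, 5.52 and 8.75, and Cdkn1c at 388, 333 and 274. In PRODH TAC hearts Cdkn1a was at 1544, 1030.0 and 1238, Cdkn2b at 9.93, 6.59 and 14.3, and Cdkn1c at 306, 255 and 272. Cdkn1c was thus lower in each PRODH sham library than in each vector sham library (4.89% of all genes were), not called. The log2 difference of Cdkn1a after TAC in PRODH hearts was 0.73, not called. The sham and TAC libraries of vector mice did not overlap in any of these 3 genes.

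Of 16 genes of the RB, E2F and MuvB complexes 1 was called, Tfdp2, a partner that E2F needs to bind DNA. It fell from 1104, 1367 and 1489 in vector sham to 798, 646 and 738 in vector TAC, with a log2 difference of -0.85 (SE 0.14, adjusted p = 0.0015). E2f3, Lin37 and Mybl2 (B-Myb) followed in this list, at 0.53, 0.55 and 1.19, not called. Of 38 other mitosis genes 3 were called. Smc4, a condensin subunit, rose from 236, 227 and 202 to 326, 331 and 276 (0.49 (SE 0.14, adjusted p = 0.047)). Pttg1 (securin), the inhibitor of separase, fell from 828, 784 and 722 to 671, 518 and 506 (-0.47 (SE 0.13, adjusted p = 0.032)). Cdc25c, a phosphatase that activates Cdk1, was called higher with a limma adjusted p of 0.023, on 2, 0 and 0 reads in vector sham against 12, 8 and 8 in vector TAC. The other mitosis genes had a median of 0.62 with 35 of 38 above 0. Spc25, a kinetochore gene, was next in that list at 1.34, not called. After TAC in PRODH hearts the log2 difference was -0.535 for Tfdp2 and 1.28 for Spc25, neither called. Mean levels in PRODH sham and PRODH TAC were 1270 and 873 for Tfdp2, 878 and 674 for Pttg1, and 13.8 and 31.1 for Spc25. For Smc4 they were 196 and 233, and for Cdc25c 1.47 and 2.49.

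None of 32 other replication genes was called, and 16 lay above and 16 below 0, with a median of 0.03. The 4 with the smallest p were Gmnn (geminin, which blocks relicensing) at -0.56, Prim2 (primase) at 0.67, Dbf4 at 0.94 and Rpa1 at -0.26. Of 9 G1 cyclins and kinases none was called, with Ccnd2 nearest at 0.64 (SE 0.19, adjusted p = 0.057), ahead of Ccne1 (0.44), Cdk4 (0.17) and Ccne2 (-0.23). These lists were drawn up with results of these data known, so they carry no test of their own.

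**Figure D5:**
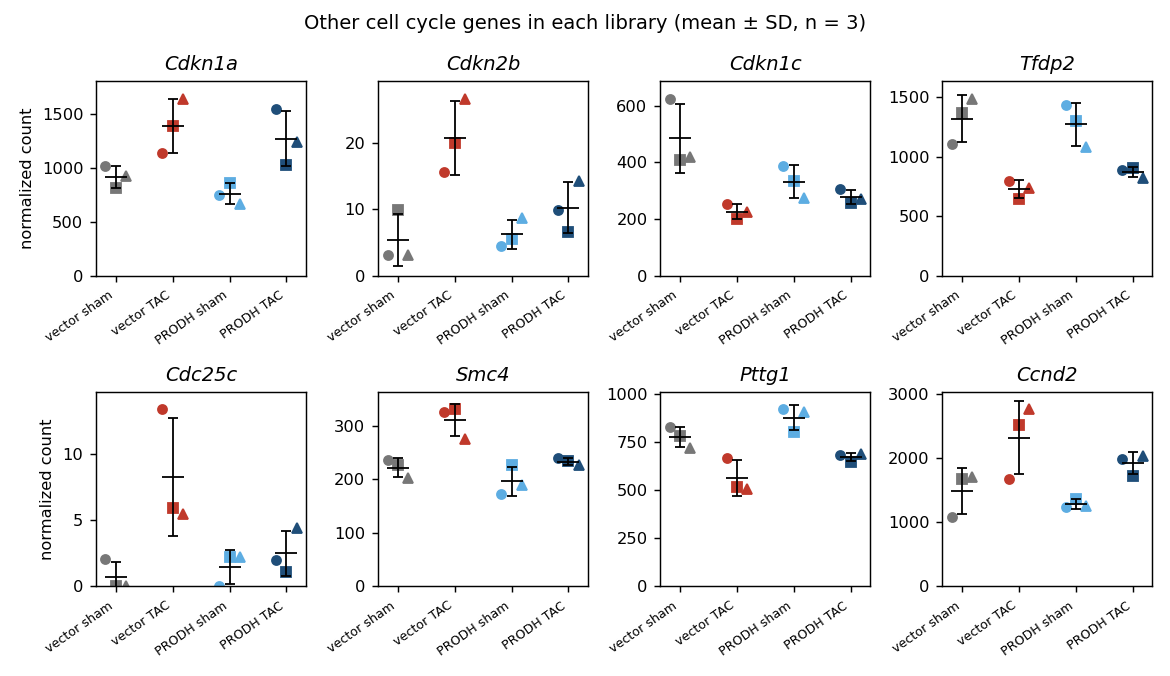
Normalized counts of 8 cell cycle genes outside the set in each library; bars are mean ± SD of 3 libraries and marker shapes are replicates 1 (circle), 2 (square) and 3 (triangle). Cdkn1a, Cdkn2b, Cdc25c and Smc4 were called higher and Cdkn1c, Tfdp2 and Pttg1 lower in vector TAC than in vector sham, and Ccnd2 was not called.

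Markers of cell types moved between the same groups. The summed normalized count of 8 fibroblast markers was 35370 to 39430 in vector sham, 46170 to 97730 in vector TAC, 33010 to 37030 in PRODH sham and 32560 to 38520 in PRODH TAC, with 5 of 8 called higher after TAC in vector hearts and 4 of 8 called lower in PRODH TAC than in vector TAC. After TAC in PRODH hearts 0 of 8 were called, but 5 were higher and 0 lower without overlap (10.4% and 11.4% of all genes). Their log2 differences ran from -0.25 for Tcf21 to 1.43 for Postn, with 5 above and 3 below 0. Among vector TAC replicates 1, 2 and 3 the fibroblast sum was 46170, 97730 and 84120, and the mean log2 level of the mitosis genes relative to vector sham was 0.79, 1.28 and 0.66. Replicate 2 was highest in both, replicate 1 had the lowest fibroblast sum and replicate 3 the lowest mitosis level. The fibroblast markers did not all follow their sum. Tcf21 (241, 198.5 and 158.9) and Lum (2815, 2020 and 2360) were highest in replicate 1. Postn (4752, 26240 and 17800) and Col1a1 (2820, 14730 and 9337) were lowest there, as were Pdgfra, Col1a2, Dcn and Gsn. Whether the sum follows the share of fibroblasts was not tested. The macrophage sum was 5380 to 7647, 7292 to 12810, 5057 to 7570 and 5528 to 7002 in the same order, with 1 of 8 called higher in vector TAC, and was highest in vector TAC replicate 1.

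The markers of heart muscle, the labelled tissue, were all above 0 in every library and summed to 410100 to 594100 in vector sham, 324000 to 413900 in vector TAC, 520000 to 599000 in PRODH sham and 449800 to 514700 in PRODH TAC. Of these 8 markers 2 were called lower after TAC in vector hearts and 2 higher in PRODH TAC than in vector TAC. Of 8 endothelial markers none was called, with sums of 24550 to 33730, 28390 to 31550, 23840 to 26220 and 25560 to 26330. Of 8 pericyte and smooth muscle markers 1 was called higher in vector TAC, with sums of 13880 to 23300 over the 12 libraries. None of the fibroblast, macrophage, endothelial or pericyte markers was at 0 in any library.

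B and T cell markers summed to 28.5 to 70.3 over the 12 libraries, and neutrophil markers to 26.4 to 226, none of either list called. The erythroid sum was highest in PRODH sham replicate 2 (138500) and vector TAC replicate 1 (120200), against 11250 to 55400 in the other 10 libraries. The same 2 libraries had the highest mesothelial sums, 469 and 474 against 89.7 to 277. Of the mesothelial markers 2 were called higher in vector TAC than in vector sham, and 7 of the 8 mesothelial markers were at 0 in some library. Krt8 and Krt18 had 15, 17 and 4 and 43, 83 and 49 reads in vector TAC. Msln, Upk3b, Upk1b, Lrrn4 and Krt19 had 0 or 1 read each in vector TAC replicates 2 and 3. Wt1 had a log2 difference of -0.05 between these groups. PRODH sham replicate 2 is also the library with the highest replication genes. Without PRODH sham replicate 2 and vector TAC replicate 1, 4 members were called higher in vector hearts after TAC (Kif11, Tyms, Anln and Prc1). Calls over all genes rose too, to 1698 higher of 20468, from 787 of 21173 with every library. Between the TAC groups 1 member was called lower (Tyms), and so were 1347 of 20468 genes (382 of 21173 with every library). What part these cell types have in the members' levels was not tested.

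Per kilobase of annotated exon (GENCODE M21), the members' order of level was led by Pcna at 251 normalized counts per kb in vector sham, then Mcm6 at 45.2, Mcm7 at 37.1, Mcm4 at 36.3 and Mcm3 at 34.3, and the highest mitosis gene was Cdc20 at 20.6. The lowest were Kif2c at 1.03 and Ttk at 1.18. In vector TAC the highest mitosis genes per kb were Cdc20 at 32.2, Ccnb2 at 27.3 and Mki67 at 17.2. Lengths join the exons of all annotated transcripts of a gene, expressed or not, for example 11012 bases for Rrm1 and 1531 for Ccnb2. The order per kb thus depends in part on the annotation. Exons of 13 members overlap a gene on the other strand and those of 3 a gene on the same strand, and 5 members (Pcna, Tyms, Ccnb1, Ccnb2 and Kif4) have a named pseudogene. Neither the use of the strand in counting nor the handling of reads shared between genes or copies is given. For these members reads of the neighbour or copy thus cannot be told apart.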

How the data were processed

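RNA was extracted from mouse hearts with TRIzol and libraries were made with a SMARTer mRNA kit, per the labels' protocols. The read aligner, counter, build, annotation and use of strand were not given in the sources used here. Per gene and library, the deposited table holds a signal that the authors normalized before they deposited it: dividing each column by its smallest step returned whole reads for 100% of values within 0.01, so the values are read counts over a size factor per library. Recovered reads per library ranged from 10132059 to 15228036.

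The 12 libraries formed 4 groups of 3 by their titles. Because the values are normalized, limma 3.58.1 in R 4.3.3 with a trended prior was the test, on log2(value + 1), for the 21173 of 24775 genes that reached 1 in 3 or more libraries. One fit had a mean per group and 8 residual degrees of freedom, and p-values were adjusted by Benjamini-Hochberg over all genes tested. On the recovered reads edgeR 4.0.16 (quasi-likelihood, TMM) called 1698 genes in vector TAC against vector sham and 874 in PRODH TAC against vector TAC, where limma called 1645 and 831, and DESeq2 1.42.0 was a further alternative. The p-values measure only the spread between these libraries. Fits were tested on simulated data. Shares without overlap mean that every library of one group lay above every library of the other. Tables and figures were made with pandas 2.3.3 and matplotlib 3.10.9.

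The members, the role and marker lists and the tests were chosen with earlier results of these data known. Values per library are given for 12 index members (Mki67, Top2a, Cdk1, Ccnb1, Ccna2, Aurkb, Foxm1, E2f1, Mcm2, Mcm5, Pcna and Rrm2), for up to 3 members per role with the smallest p over the first 4 comparisons, and for called members; of each other cell cycle list up to 4 genes with the smallest p in vector hearts are named. Melk, Plk1, Aurka, Bub1, Cenpf, Cenpe, Gins2, Racgap1, Kif4, Kif20a, Kif23, Nusap1 and Tk1 were added after their values were seen. Exon lengths came from GENCODE M21, as the union of the exons of all transcripts of a gene. Of the listed marker genes Ly6g was not in the table.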

Additional observations from a re-analysis of the deposited data

How the results depend on the processing

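In vector TAC against vector sham, 2 members were called. The count was 1 with a pseudocount of 0.1 and with no filter on low values, 0 after quantile normalization and 0 when only the 2 groups compared were fitted (with the filter on low values applied within them), 5 with DESeq2 and 4 without the 2 libraries richest in mesothelial markers. It was 2 with TMM or library size scaling and 3 with edgeR or a filter of at least 10 in 3 libraries. Among all tested genes the number called higher changed too, from 787 of 21173 in the main fit. It was 1065 with DESeq2, 853 with edgeR, 747 after quantile normalization and 801 of 14532 with the filter of at least 10. With only the groups compared it was 352 of 18911, and without the 2 libraries richest in mesothelial markers 1698 of 20468. Leaving out each library in turn gave 0 to 3 members, with 0 when vector sham replicate 3, vector TAC replicate 2 or PRODH TAC replicate 3 was the one left out. In these 3 fits 534 of 20820, 384 of 20965 and 660 of 20867 genes were called higher, in the same order. In PRODH TAC against vector TAC, 0 members were called. The count was 1, Tyms, with a filter of at least 10 in 3 libraries, with edgeR, with DESeq2 and without the 2 libraries richest in mesothelial markers, and 0 to 1 over the leave-one-out fits. Tyms was lower, and genes called lower numbered 382 of 21173 in the main fit, 460 with edgeR and 707 with DESeq2. They numbered 420 of 14532 with that filter and 1347 of 20468 without those 2 libraries. In PRODH sham against vector sham, in TAC against sham in PRODH mice and in the difference between the TAC responses, 0 members were called under every alternative run. The causes of these changes were not tested. Of the values of the 28 members named by rule, in the 5 comparisons and under the alternatives, 3095 kept their side of the threshold and moved by no more than a standard error where not called, 44 moved by more, 26 became called, 22 lost a call and 0 turned a called direction.

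The median over the members kept its sign under every alternative run in vector TAC against vector sham, PRODH TAC against vector TAC, TAC in PRODH mice and the difference between the TAC responses, and changed sign in PRODH sham against vector sham. Over all genes, the calls in vector TAC against vector sham numbered 1645, and 652 with only the groups compared, 3602 without the 2 libraries richest in mesothelial markers, and 821 (without vector TAC replicate 2) to 3455 (without vector TAC replicate 1) over the leave-one-out fits. In PRODH TAC against vector TAC they numbered 831, and 383, 2887 and 247 to 2754 in the same order, with 1509 by DESeq2. In the other comparisons the counts over all genes were 0 to 7 (PRODH sham against vector sham), 0 to 1023 (TAC in PRODH mice) and 0 to 412 (difference between the TAC responses). The count of 1023 came with only the groups compared, the setting that gave 652 in vector TAC against vector sham.

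With the replicate block, 5 members were called in vector TAC against vector sham (Kif11, Ccnb2, Nek2, Anln and Prc1) and 0 in the other comparisons. These 5 were higher, and over all tested genes 848 of 21173 were called higher with the block, against 787 in the main fit. The labels do not say that a number marks a shared litter or day. Across genes, deviations from the group means in libraries with the same number correlated at -0.05 to 0.14. Of these 18 pairs of libraries 2 lay over 0.1, so the numbers were not taken as pairs. With different numbers the range was -0.206 to 0.142, with 1 of 36 pairs over 0.1. By mean log2 level over the mitosis genes alone, replicate 2 was nonetheless the highest library of each group. Relative to the vector sham mean it stood at 0.52 (vector) and 0.56 (PRODH) after sham surgery, and at 1.28 and 0.54 after TAC. Over the replication genes it was highest only in PRODH sham. Whether the replicate number bears on the mitosis genes was not tested. Depth limits the low members, such as Kif2c with 3 to 29 reads and Melk with 0 to 42 reads per library.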
